A study of Moricandia arvensis and Moricandia suffruticosa and Moricandia moricandioides with 78 samples.

Results

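The genes described are 42 members of the expansin and xyloglucan endotransglucosylase/hydrolase (XTH) families, followed in mature leaves of 3 Moricandia species under control watering, water stress and rewatering. The members were taken as a fixed list of Arabidopsis gene identifiers, 18 of expansins and expansin-like genes and 24 of XTHs, out of 33602 features counted in each library. The reads of each library had been assigned to Arabidopsis coding sequences, so a gene identifier stands for the Moricandia transcripts that matched that Arabidopsis gene best. The deposited tables hold no gene symbols, and members are therefore named by identifier and family only.

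Both families act on the primary cell wall of growing and bending tissues. Expansins loosen the wall at acid pH without cutting its polymers, probably by weakening the contacts between cellulose and the xyloglucan that coats it. XTHs cut xyloglucan chains and join the cut end to another chain, and some of them transfer it to water and so shorten the polymer. In leaves both families are best known for cell expansion, and single members of each are known to respond to drought, touch, hormones and cold. A mature leaf therefore gives the level of these transcripts when most expansion has ended.

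Leaves of M. moricandioides (Osnabruck 04-0393-10-00), a C3 species, were set against leaves of M. arvensis (IPK Gatersleben MOR1) and M. suffruticosa (Royal Kew Garden 0105433), which have C2 photosynthesis. Potted plants were sampled with stomatal conductance at 100% before water was withheld (T0), and after it had dropped to 50% (T1) and to 10% (T2) in the stressed plants. Rewatered plants (RW) are labelled as 100% again, and well-watered controls were taken at T1, T2 and RW. The study rewatered pots to their starting weight, and reports that conductance recovered faster in M. arvensis than in M. moricandioides and M. suffruticosa. There were 78 libraries in 21 groups of 1 to 5. In M. moricandioides there were 3 stressed and 4 control libraries at T1, 3 and 2 at T2, 4 and 4 at RW, and 4 controls at T0. In M. arvensis there were 1 and 4 at T1, 5 and 5 at T2, 4 and 5 at RW, and 5 at T0. In M. suffruticosa there were 3 and 4 at T1, 4 and 3 at T2, 4 and 3 at RW, and 4 at T0. Each species was 1 accession grown for the experiment, and M. suffruticosa is tetraploid, so that reads of its duplicate gene copies were counted together.

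Each library held between 22346621 and 41675513 assigned reads, with a median of 31633176. Of the 116 pairs of libraries within a group, 20 were much closer to each other than the rest, with a median squared count difference below 4 times that of counting noise. The lowest such ratio was 1.64, so they differed by more than counting noise, which does not show that they came from separate plants. These pairs were kept as replicates because they are labelled so, and their independence was not tested. Among the groups tested, they leave 2 distinct profiles among the 4 rewatered libraries of M. arvensis, 2 among the 4 rewatered and 3 among the 4 T0 libraries of M. moricandioides, and 2 among the 4 T0 libraries of M. suffruticosa. In M. moricandioides they also leave 2 among the 3 stressed libraries at T1, 2 among the 3 at T2, and 3 among the 4 controls at T1 and at RW, and in M. arvensis 4 among the 5 stressed libraries at T2. The p-values measure the spread between these libraries, which may be technical in part. At T2, 2 control libraries of M. suffruticosa were as close to a stressed library as these pairs were to each other, at ratios of 1.84 and 1.89. Outside their own group, its 3 controls at RW were closest to a control of M. moricandioides, at ratios of 22.3, 24 and 25. Their median correlation was 0.939 to 0.94 with M. moricandioides libraries and 0.904 to 0.91 with other libraries labelled M. suffruticosa. For S33c, S36c, S5s and S8s of T2 these medians were 0.923 and 0.911 to 0.914. The labels were kept, and whether these libraries are of the species named was not tested. No test was therefore run in M. suffruticosa at T2 or RW, nor in M. arvensis at T1, where 1 library was stressed. Sequencing lanes 1 and 2 held M. arvensis only and lane 6 held M. moricandioides only, so lane and species cannot be told apart for most libraries. In M. moricandioides the rewatered libraries were all on lane 7, and the stressed libraries at T2 and the controls at RW all on lane 6. Lane and watering therefore cannot be told apart in its rewatering comparisons.

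On the TPM scale, which corrects for transcript length, the members spanned a wide range of levels. AT2G01850 (XTH) had the highest mean over all libraries, 151 TPM, followed by AT1G69530 (expansin) at 140 TPM, AT3G44990 (XTH) at 102 TPM, AT4G03210 (XTH) at 69.8 TPM, AT1G26770 (expansin) at 61 TPM and AT2G28950 (expansin) at 53.8 TPM. At the other end AT5G05290 (expansin) never exceeded 5 counts and AT2G18800 (XTH) never exceeded 4 counts in a library, and neither passed the filter on low counts in any comparison. AT3G45960 (expansin), with at most 23 counts, passed in 2 of the 16 comparisons set out at the start. Expansin members summed to 189 ± 38.3 TPM in M. moricandioides at T0 (SD, n = 4), against 604 ± 349 TPM in M. arvensis at T0 (n = 5). XTH members summed to 213 ± 86.5 TPM in M. moricandioides, against 520 ± 78.7 TPM in M. arvensis.

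**Figure D1:**
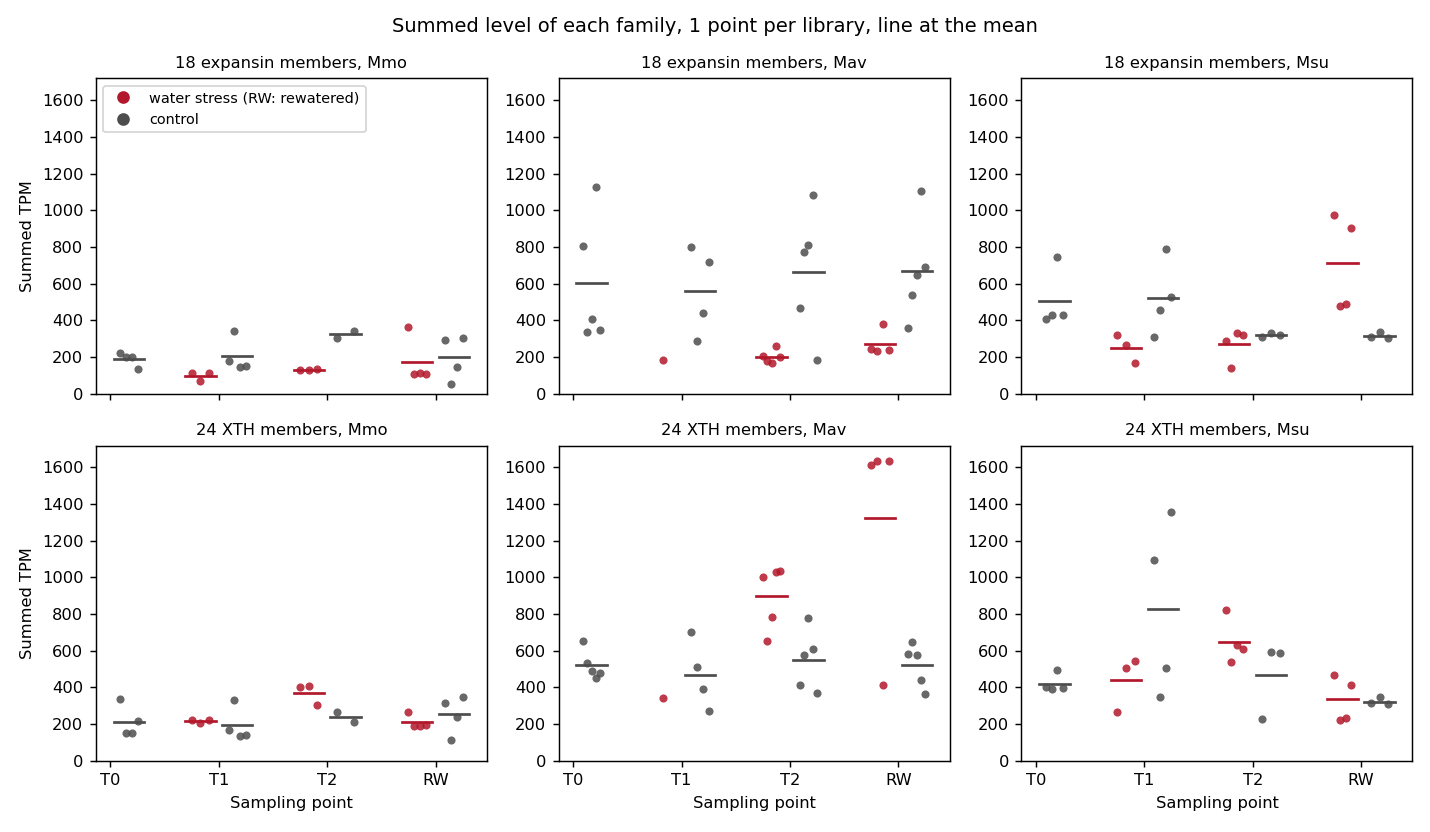
Summed TPM of the expansin and of the XTH members by species as labelled (Mmo, M. moricandioides, Mav, M. arvensis, and Msu, M. suffruticosa), time and watering, with 1 point per library and a line at the mean. At T0 the expansin sums were 133 to 219 TPM in M. moricandioides and 336 to 1126 TPM in M. arvensis, and the XTH sum of rewatered M. arvensis held 3 libraries between 1612 and 1636 TPM and 1 at 414 TPM.

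The first comparison asked how leaves of the C3 species differed from leaves of the C2 species before water was withheld. Most expansin and XTH members that could be tested were lower in M. moricandioides than in M. arvensis at T0. Of 38 members tested, 26 were lower and 3 were higher, where all genes were lower in 17.4% and higher in 14.4% of tests (edgeR's quasi-likelihood test, Benjamini-Hochberg adjusted p under 0.05 over all genes and a log2 difference over 1). The median log2 difference of the members was -2.86, beside 0.01 over all genes tested. The expansins gave 11 lower and 1 higher of 16 tested, with a median of -2.20, and the XTHs gave 15 lower and 2 higher of 22 tested, with a median of -3.08. The libraries of the 2 species did not overlap for 24 of the 29 that passed, beside 83.6% of all genes that passed and 37% of all genes tested.

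The lowest member by ratio was AT4G37800 (XTH), which was close to undetected in M. moricandioides. It had 0, 0.0360, 0.114 and 0.139 CPM (counts scaled by library size) in the 4 M. moricandioides libraries, against 76.1, 29.5, 51.2, 50.5 and 103 CPM in the 5 M. arvensis libraries. The groups were far apart, with a log2 difference of -9.74 ± 0.64 (SE) and an adjusted p of 3.94e-06 by edgeR. AT5G65730 (XTH) showed the same picture with 0.0972, 0.216, 0.142 and 0 CPM in M. moricandioides, against 36.5, 8.48, 66.1, 20.1 and 38.9 CPM in M. arvensis (log2 difference -8.13 ± 0.79, adjusted p = 3.88e-05 by edgeR). The expansin AT1G20190 had at most 0.356 CPM in M. moricandioides, against 4.57 to 40.3 CPM in M. arvensis, a log2 difference of -6.61 ± 0.89 (edgeR adjusted p = 0.000231). AT3G44990 (XTH), the third most abundant member, had 3.21, 0.433, 0.398 and 4.72 CPM in M. moricandioides, against 246, 216, 72, 79.8 and 86.1 CPM in M. arvensis. Its log2 difference of -6.05 had an adjusted p of 0.00037 by edgeR, and no library of one species came near the other.

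A pair of low members also stood far apart, although their ratios rest on very few counts in M. moricandioides. AT2G20750 (expansin) had 3 counts over the 4 M. moricandioides libraries, against 459 over the 5 M. arvensis libraries, a ratio of 111 in favour of M. arvensis with a 95% counting interval of 37.6 to 538. AT1G11545 (XTH) had 2 counts in M. moricandioides, against 315 in M. arvensis, a ratio of 114 with an interval of 31.2 to 944. These intervals cover counting error only.

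The more abundant members differed by less. AT4G03210 (XTH) averaged 9.31 ± 5.31 CPM in M. moricandioides (SD, n = 4) and 96.4 ± 23.9 CPM in M. arvensis (n = 5), a log2 difference of -3.40. AT2G28950 (expansin) averaged 23.3 ± 3.84 CPM in M. moricandioides and 108 ± 34.2 CPM in M. arvensis, a log2 difference of -2.24, and AT2G39700 (expansin) averaged 12.0 ± 4.71 CPM in M. moricandioides and 49.6 ± 4.15 CPM in M. arvensis. AT1G69530, the most abundant expansin, had a log2 difference of -1.75 that did not pass (edgeR adjusted p = 0.0718). AT2G01850, the most abundant XTH, had a log2 difference of 0.18 and did not pass.

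Of the 3 members that were higher in M. moricandioides, only AT4G25810 (XTH) had libraries that did not overlap. It had 1.68, 1.23, 1.62 and 1.53 CPM in M. moricandioides, against 0, 0.101, 0.614, 0.0670 and 0 CPM in M. arvensis (log2 difference 3.19, edgeR adjusted p = 0.0176). AT1G32170 (XTH) was higher by 2.17 on the log2 scale (edgeR adjusted p = 0.00683) with 1 M. moricandioides library at 1.29 CPM, inside the range of M. arvensis, which reached 2.14 CPM. AT4G17030 (expansin) was higher by 3.18 (edgeR adjusted p = 0.0429), with 1.07, 0.108, 0.256 and 5.92 CPM in M. moricandioides and 0 to 0.410 CPM in M. arvensis. That test of AT4G17030 was not passed without M1c, M12c, A1, A4 or A46 (edgeR adjusted p up to 0.322).

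**Figure D2:**
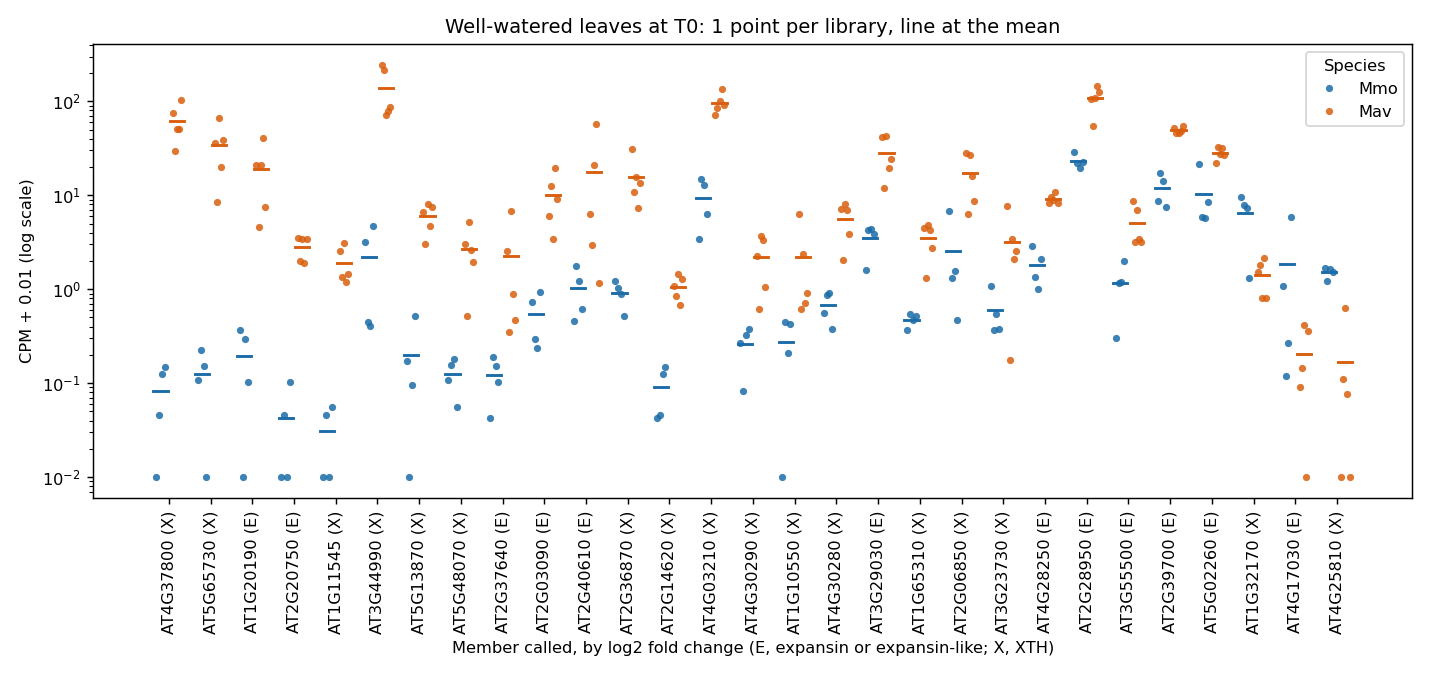
CPM of the 29 members that passed the test at T0, on a log axis, with 1 point per library of M. moricandioides (Mmo) and M. arvensis (Mav), a line at the mean and zero counts drawn at 0.01. AT4G37800 lies at or below 0.139 CPM in M. moricandioides and at 29.5 to 103 CPM in M. arvensis, and AT4G25810 lies the other way.

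Other genes of wall assembly were also lower in M. moricandioides at T0. Of the genes listed for primary wall cellulose synthesis 5 of 7 tested were lower and 0 higher, of those for xyloglucan synthesis 5 of 13 were lower and 0 higher, and of those for trimming xyloglucan side chains 2 of 3 were lower. Of the plasma membrane proton pumps, which acidify the wall, 3 of 8 were higher and 1 lower. The markers of dividing cells moved with these genes. All 4 of them were lower in M. moricandioides, where they summed to 0.571 to 1.26 TPM, against 5.94 to 13.8 TPM in M. arvensis, and their part in the result was not tested. Epidermis markers were lower in 1 of 2 tested, at a sum of 10.5 to 42 TPM in M. moricandioides and 18.1 to 51 TPM in M. arvensis, mesophyll markers in 0 of 3, and xylem markers in 1 of 3. Guard cell markers were higher in 1 and lower in 1 of 3, and phloem companion cell markers passed in 0 of 2. In these bulk leaf samples, fewer cells that express a gene and less RNA per cell cannot be told apart. The 5 listed water stress response genes were all lower in M. moricandioides, with sums of 152 to 325 TPM against 494 to 2151 TPM in M. arvensis, although all these plants were well watered.

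The controls of later times gave 3 further comparisons of the same 2 species, in libraries that the T0 comparison did not use. They were added after the T0 result had been seen. At T1, 13 of 35 members tested were lower and 1 higher in M. moricandioides, where all genes were lower in 12.3% and higher in 12.0%. At T2, 11 of 39 were lower and 1 higher, beside 8.93% and 8.22% of all genes, and at RW 12 of 36 were lower and 1 higher, beside 12.7% and 11.4% of all genes. The member medians were -1.32, -1.26 and -1.25. The count of lower members was thus less than that at T0 at each later time. Dividing cell markers were lower in 1 of 4 at T1, 0 of 4 at T2 and 0 of 4 at RW. Water stress response genes were lower in 1, 0 and 1 of 5, and primary wall cellulose genes in 0 of 8, 0 of 7 and 0 of 7. All 3 xylem markers were higher at T1. The part of these lists in the later control results was not tested.

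Of the 34 members tested in all 4 control comparisons, 21 had a negative log2 difference in all 4 and 1 had a positive one in all 4. AT5G13870 (XTH) was lower in M. moricandioides in all 4 tests, by log2 differences of -5.09 to -2.21, and AT5G48070 (XTH) by -6.27 to -3.89. A further 8 were lower in 3 of the 4 tests, namely AT4G37800, AT5G65730, AT1G11545 and AT1G65310 of the XTHs and AT2G20750, AT3G55500, AT4G38400 and AT5G02260 of the expansins. AT2G20750 was not lower in the T2 controls, at a log2 difference of 0.85. Of the members described at T0, AT3G44990, AT1G20190, AT4G03210 and AT2G28950 passed as lower at T0 only. Their log2 differences over the 4 comparisons reached up to 0.09, -1.26, -0.03 and -0.46. AT1G32170 passed as higher at T0 only and ranged from -1.78 to 2.17. AT4G17030 was higher in M. moricandioides in all 4 tests, by 2.76 to 4.48. Its levels in the controls at T1 were 40.7, 3.42, 25.3 and 27.1 CPM in M. moricandioides, against 0.186, 3.22, 1.01 and 0.194 CPM in M. arvensis.

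The controls of M. moricandioides themselves differed between times. Between its T1 and T0 controls, 8 of 29 members tested were higher at T1 and 2 lower, beside 6.09% and 5.70% of all genes, and 16 passed in all without control M6c. AT3G44990 had 45.1, 95.5, 38.3 and 39.5 CPM at T1, against 3.21, 0.433, 0.398 and 4.72 CPM at T0 (log2 difference 4.67, edgeR adjusted p = 0.00645). AT2G37640 (expansin) was higher at T1 by 5.15 on the log2 scale, AT5G65730 by 4.46, AT2G03090 (expansin) by 3.26 and AT4G03210 by 2.60. AT4G30270 (XTH) went the other way, with 2.97, 3.93, 1.86 and 2.02 CPM at T1 and 17.6, 24.9, 27.5 and 64.8 CPM at T0 (log2 difference -3.64, edgeR adjusted p = 0.0018), and AT4G38400 (expansin) was lower as well (-1.32), but not without M1c, M12c, M5c, M9c or M10c (edgeR adjusted p up to 0.114). Of the 5 water stress response genes, all 5 were also higher in these T1 controls, and of the 3 xylem markers all 3 were. Their part in the result was not tested.

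In M. arvensis fewer members differed between control times, but the times compared were T2 and T0 and not T1 and T0. These M. arvensis controls also held no near-identical libraries, unlike those of M. moricandioides. Between T2 and T0 controls 1 of 36 members was higher and 1 lower, beside 2.42% and 2.52% of all genes. AT2G20750 had 0.127, 0.0878, 0.436, 0.0358 and 0.211 CPM at T2, against 3.48, 1.98, 3.39, 1.91 and 3.39 CPM at T0 (log2 difference -3.97, edgeR adjusted p = 0.0016). AT1G32170 was higher at T2 by 2.06 (edgeR adjusted p = 0.0471), with overlapping libraries, and passed without A16c but not without any other 1 of the 10 libraries (edgeR adjusted p up to 0.106).

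M. moricandioides was also set against M. suffruticosa, the other C2 species, at T0, in a comparison that shares its M. moricandioides libraries with the one above. Of 35 members tested, 19 were lower and 7 higher in M. moricandioides, beside 16.9% and 15.4% of all genes, with a member median of -2.02. AT4G37800 had at most 0.139 CPM in M. moricandioides, against 8.63, 9.53, 61.5 and 9.44 CPM in M. suffruticosa, a log2 difference of -8.26. AT3G44990 (-6.99), AT1G11545 (-6.74), AT5G65730 (-6.62) and AT1G20190 (-6.54) followed on the log2 scale. AT5G57560 (XTH) was higher in M. moricandioides, with 27.9, 8.11, 10.4 and 24.8 CPM, against 0.457, 1.19, 0.533 and 0.855 CPM in M. suffruticosa (log2 difference 4.49, edgeR adjusted p = 0.000142). AT4G25810 (2.27), AT1G32170 (1.85), AT1G14720 (XTH, 1.61) and AT4G38400 (1.45) were higher by less, and AT4G25810 did not pass without S38 (edgeR adjusted p = 0.0511). All 4 dividing cell markers were again lower in M. moricandioides, at 0.571 to 1.26 TPM against 6.85 to 8.38 TPM in M. suffruticosa. Both epidermis markers were lower, at 10.5 to 42 TPM against 62.7 to 96.3 TPM in M. suffruticosa, as were all 3 xylem markers, at 3.01 to 3.84 TPM against 4.38 to 25.2 TPM, and all 5 water stress response genes, at 152 to 325 TPM against 1138 to 2016 TPM. Mesophyll markers were lower in 0 of 3, and the part of these lists in the result was not tested.

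Between the C2 species themselves, 11 of 38 members were higher and 3 lower in M. arvensis than in M. suffruticosa at T0, beside 7.77% and 6.70% of all genes. When the 3 near-identical libraries of M. suffruticosa were summed to 1, 3 members passed in place of 14, and 8, 8 and 7 passed without S38, S39 or S43. AT5G13870 was all but absent from M. suffruticosa, with 970 counts over the M. arvensis libraries and 3 over those of M. suffruticosa, a ratio of 261 (95% counting interval 89.1 to 1268). AT1G10550 (XTH) had 381 counts in M. arvensis and 1 in M. suffruticosa, a ratio of 308 (54.9 to 12182). AT5G57560 was higher in M. arvensis by 3.66, AT3G23730 (XTH) by 3.14 and AT3G55500 (expansin) by 1.87 on the log2 scale. AT4G28250 (expansin) was lower, with 8.20, 9.55, 8.98, 10.9 and 8.26 CPM in M. arvensis and 35.9, 41.6, 31.2 and 37.8 CPM in M. suffruticosa (log2 difference -2.01, edgeR adjusted p = 4.59e-05). AT4G17030 (-5.71) and AT2G14620 (XTH, -1.21) were also lower. AT3G23730 did not pass without S38, S39 or S43, nor AT2G14620 without these or A1, A4, A46 or A48 (edgeR adjusted p up to 0.0714 and 0.119). AT4G17030 had 0 to 0.410 CPM in M. arvensis, against 13.5, 13.8, 0.0711 and 13.8 CPM in M. suffruticosa, of which the 3 high ones are the near-identical libraries.

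The next comparisons asked what water stress did to these transcripts within a species. At T1, with conductance at 50%, most of the changes in M. moricandioides were falls. Of 30 members tested, 11 fell and 2 rose, beside 11.1% and 6.72% of all genes, and the expansins gave 7 falls and 2 rises of 14 tested. The member median was -1.04. The T1 controls used here are those of the comparison with T0 controls. AT2G37640, AT2G39700, AT3G29030, AT4G28250, AT5G65730 and AT4G03210 were higher in these controls than at T0 and lower under stress. Their falls were thus from a raised control level, and the direction in one comparison is not separate evidence from the other. When near-identical libraries were summed, 6 members passed, and 15 passed without control M6c, which stood apart from the other controls. All 3 xylem markers fell with the members, to a sum of 13.1 to 17.4 TPM in stressed leaves against 39.6 to 58 TPM in control leaves. The 1 epidermis marker tested and 1 of 3 dividing cell markers fell, 0 of 3 mesophyll markers passed, 2 of 3 genes for trimming xyloglucan fell, and 2 of 5 water stress response genes rose. Their part in the result was not tested.

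AT4G03210 fell to 2.56, 0.982 and 2.32 CPM in stressed leaves at T1, against 50.2, 94.3, 39.4 and 40.1 CPM in control leaves (log2 change -4.87, edgeR adjusted p = 0.000759). AT2G28950 fell to 3.61, 1.54 and 4.18 CPM, against 21.8, 86.7, 21.1 and 23.6 CPM in control leaves (-3.66, edgeR adjusted p = 0.00791). The highest control in both genes was M6c. AT2G37640 (-4.44), AT2G06850 (XTH, -4.10) and AT5G65730 (-4.02) were the other large falls on the log2 scale, and AT5G65730 did not pass without M7s (edgeR adjusted p = 0.0507). Stressed and control libraries did not overlap for any of these. The rises were both in expansins. AT5G02260 had 29.1, 41.6 and 31.2 CPM in stressed leaves, against 16.8, 11.4, 13.8 and 14 CPM in control leaves (log2 change 1.25, edgeR adjusted p = 0.00192), and AT3G55500 rose by 1.38 (edgeR adjusted p = 0.0107), but not without M7s (edgeR adjusted p = 0.0525).

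In M. suffruticosa at T1, 0 of 35 members passed by edgeR, while 15 had an unadjusted p under 0.05 and DESeq2 called 10. Of all genes tested by edgeR, 3190 of 19657 had an unadjusted p under 0.05. By edgeR all genes passed in 0.137% of tests upward and 0.0305% downward, and by DESeq2 4.84% passed in either direction. The member median was -1.27, and 27 of 35 log2 changes were below 0. Without stressed library S10s 5 members passed, and without S15s 1 did. The values nearest to the threshold were those of AT1G69530, with a log2 change of -2.90 (edgeR adjusted p = 0.0528), AT3G55500 with 3.63 and AT4G17030 with 7.08 (both edgeR adjusted p = 0.0626). AT4G17030 had 1.47, 160 and 129 CPM in the 3 stressed libraries and between 0.249 and 1.15 CPM in the 4 controls, so 1 stressed library was near the controls.

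At T2, with conductance at 10%, stressed leaves of M. arvensis had far lower levels of several abundant expansins than control leaves. Of 37 members tested, 17 fell and 5 rose, beside 16.6% and 11.6% of all genes, with a member median of -1.50. Expansins gave 9 falls and 1 rise of 15, with a median of -2.80, and XTHs gave 8 falls and 4 rises of 22, with a median of -0.91. The summed expansin level was 202 ± 36 TPM in stressed leaves and 664 ± 346 TPM in control leaves (SD, n = 5 each), whereas the summed XTH level was 899 ± 172 TPM in stressed leaves and 550 ± 164 TPM in control leaves.

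The falls included abundant expansins. AT2G28950 fell to 2.34, 2.85, 1.36, 4.96 and 2.64 CPM in stressed leaves, against 55.4, 82.7, 153, 171 and 32.2 CPM in control leaves (log2 change -5.16 ± 0.53, edgeR adjusted p = 3.1e-05). AT5G02260 fell to 1.98, 3.54, 4.43, 1.06 and 2.96 CPM, against 80.0, 53.3, 41, 18.2 and 55.4 CPM in control leaves (-4.17, edgeR adjusted p = 4.47e-05). AT1G69530 averaged 25 ± 5.40 CPM in stressed leaves and 317 ± 224 CPM in control leaves, a log2 change of -3.70, with control A22c, at 20.9 CPM, within the stressed range. By ratio, the largest falls were AT2G40610 (expansin, -6.94), AT5G65730 (-6.72), AT2G06850 (-6.30), AT4G28250 (-5.33) and AT2G36870 (XTH, -5.17). AT2G06850 had 0.363, 0.0407, 0.323, 1.20 and 0.0586 CPM in stressed leaves, against 7.43, 37.5, 43.7, 59.4 and 5.92 CPM in control leaves.

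AT4G17030 rose the most of all members. It had 148, 62.2, 60.8, 142 and 144 CPM in stressed leaves of M. arvensis at T2, against 0.540, 0.0585, 0.0291, 0.0715 and 0.211 CPM in control leaves. The log2 change was 9.20 ± 0.66 (edgeR adjusted p = 3.85e-06), with the groups far apart. The other 4 rises were XTHs. AT5G57560 had 233, 173, 93.5, 458 and 239 CPM in stressed leaves, against 15.9, 43.3, 32.8, 14.8 and 4.68 CPM in control leaves (3.40, edgeR adjusted p = 0.000804). AT3G44990 had 495, 242, 313, 180 and 524 CPM in stressed leaves, against 33.5, 33.5, 90.5, 19.8 and 85.0 CPM in control leaves (2.73, edgeR adjusted p = 0.000733). The groups did not overlap in either gene. AT4G25810 rose by 3.07, with overlap, and AT5G57550 by 1.79.

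The identifiers AT5G57550 and AT5G57560 are neighbours on Arabidopsis chromosome 5, as are AT4G30270, AT4G30280 and AT4G30290 on chromosome 4, and reads of such close copies could have been divided between them. AT5G57550 averaged 1.62 ± 1.14 CPM in stressed leaves of M. arvensis at T2 and 0.456 ± 0.139 CPM in control leaves (n = 5 each), far below AT5G57560 in counts.

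In M. moricandioides at T2, with 3 stressed and 2 control libraries, the falls again included abundant expansins. Of 33 tested, 9 fell and 2 rose, beside 2.27% and 2.21% of all genes, with 6 falls of 14 expansins and 3 falls and 2 rises of 19 XTHs. The member median was -0.10. Leaving out stressed library M20s keeps only M17s and M19s, which were near-identical to each other. The number that passed was 0 without control M14c or M16c, 2 without stressed library M17s, 4 without M19s and 17 without M20s, and 2 with near-identical libraries summed.

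AT4G37800 fell to 0, 0.0768 and 0 CPM in stressed leaves of M. moricandioides, against 4.58 and 6.80 CPM in control leaves. That is 3 counts against 365, a ratio of 191 in favour of the controls after scaling (95% counting interval 65 to 933). AT2G28950 fell to 6.38, 5.68 and 9.96 CPM, against 83.2 and 59.6 CPM in control leaves (log2 change -3.30, edgeR adjusted p = 0.0131). AT5G65730 (-6.49), AT2G40610 (-4.46) and AT4G03210 (-3.42) also fell. AT5G57560 rose to 188, 178 and 96.7 CPM in stressed leaves, against 6.60 and 4.58 CPM in control leaves (4.77, edgeR adjusted p = 0.0126), and AT4G25810 rose by 4.85 (edgeR adjusted p = 0.0227). The groups did not overlap in any of these.

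The responses of the 2 species at T2 share no library. All 9 members that fell in M. moricandioides were among the 17 that fell in M. arvensis, which is 100% of the first list and 52.9% of the second. Both rises in M. moricandioides were also rises in M. arvensis, 100% of 2 and 40% of 5. Over all genes, 318 of the 466 that fell in M. moricandioides (68.2%) were among the 3252 that fell in M. arvensis (9.78% of those), and 292 of 454 rises (64.3%) were among 2273 (12.8%). The shared falls were in AT1G69530, AT3G29030, AT2G28950, AT2G40610, AT1G26770 and AT4G28250 of the expansins and AT5G65730, AT4G37800 and AT4G03210 of the XTHs.

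**Figure D3:**
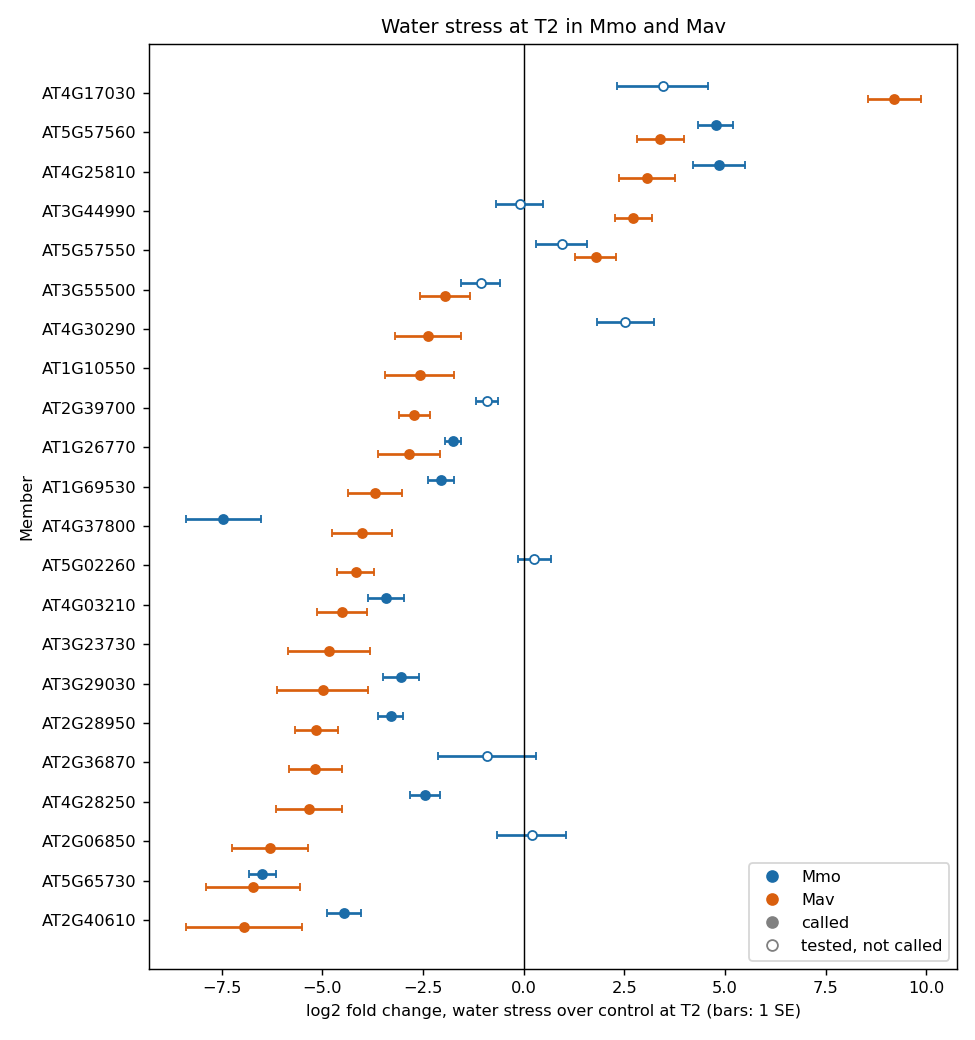
Log2 change of members under water stress at T2 in M. moricandioides (Mmo) and M. arvensis (Mav), with bars of 1 SE, filled points for members that passed the test and open points for those that did not. AT4G17030 lies at 9.20 in M. arvensis and 3.45 in M. moricandioides, and AT5G02260 at -4.17 in M. arvensis and 0.26 in M. moricandioides.

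The difference between the responses was tested as an interaction. Of 40 members, 3 passed, beside 2.76% of all genes with a higher and 2.43% with a lower response in M. moricandioides. An unadjusted p under 0.05 was found for 13 members, beside 4815 of 22323 genes. AT5G02260 fell in M. arvensis but had 18.6, 19.2 and 7.84 CPM in stressed and 11.8 and 13.2 CPM in control leaves of M. moricandioides, a difference of 4.42 ± 0.76 between the log2 changes (edgeR adjusted p = 0.0057). AT2G06850 had 23.8, 24.8 and 15.0 CPM in stressed and 33 and 3.25 CPM in control leaves of M. moricandioides, a difference of 6.49 ± 1.55 (edgeR adjusted p = 0.0267). AT4G17030 had a smaller change in M. moricandioides, where stressed leaves had 63.9, 61.2 and 12.1 CPM and control leaves 7.29 and 0.927 CPM. The difference was -5.76 ± 1.12 (edgeR adjusted p = 0.0105), and its change within M. moricandioides did not pass (3.45, edgeR adjusted p = 0.145). The difference for AT4G17030 was -3.61 without control M14c and did not pass, those for AT5G02260 and AT2G06850 did not pass without control M16c, and that for AT2G06850 did not pass without stressed library M17s or M19s or with near-identical libraries summed.

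Other lists also changed in M. arvensis at T2. All 3 mesophyll markers fell, to a sum of 2271 to 4141 TPM in stressed leaves against 8259 to 16801 TPM in control leaves, both epidermis markers fell, to 6.25 to 14.8 TPM against 27.3 to 44.6 TPM, and 3 of 4 dividing cell markers fell, to 2.44 to 5.15 TPM against 6.32 to 17.9 TPM. All 5 water stress response genes rose, to 10144 to 13026 TPM in stressed leaves against 724 to 1606 TPM in control leaves. Root hair markers summed to 1.85 to 2.99 TPM in these stressed leaves, against at most 0.0584 TPM in control leaves. Of the xylem markers 1 of 3 rose and 0 fell, while 0 of 3 guard cell and 0 of 2 phloem companion cell markers passed. The part of these changes in the members' result was not tested. In M. moricandioides 0 of 3 mesophyll, 0 of 2 epidermis and 0 of 4 dividing cell markers passed, and 2 of 5 water stress response genes rose.

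Of the genes of wall assembly, primary wall cellulose synthesis gave 3 falls of 7 in M. arvensis and 2 of 8 in M. moricandioides, and xyloglucan synthesis gave 4 of 14 and 2 of 14, with 0 rises in either list. All 3 genes for trimming xyloglucan fell in M. arvensis and 0 of 3 in M. moricandioides. The 3 genes of secondary wall cellulose synthesis, which are also the xylem markers, gave 1 rise and 0 falls in M. arvensis. Their sum was 8.86 to 53 TPM in stressed and 4.27 to 22 TPM in control leaves of M. arvensis. In M. moricandioides 0 of these 3 passed. Of the 3 expansins tested outside the 42 members, 1 rose and 1 fell, with a median of -0.93. AT1G12560, which is also the 1 root hair marker that could be tested, averaged 3.01 CPM in stressed and 0.0356 CPM in control leaves of M. arvensis, a log2 change of 6.23 (edgeR adjusted p = 5.5e-05). AT4G38210 averaged 0.459 CPM in stressed and 3.71 CPM in control leaves (-3.03, edgeR adjusted p = 0.00327).

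Set against each other under stress at T2, the 2 species differed in both directions. Of 35 members tested, 10 were lower and 5 higher in M. moricandioides, beside 15.2% and 17% of all genes, and the member median was -0.63. Expansins gave 3 lower and 3 higher of 15, and XTHs 7 lower and 2 higher of 20. With near-identical libraries summed, 9 members passed. Mesophyll markers were higher in M. moricandioides in 2 of 3, at 10596 to 10790 TPM against 2271 to 4141 TPM in M. arvensis, and water stress response genes were lower in 3 of 5, at 5410 to 5625 TPM against 10144 to 13026 TPM. Their part in the result was not tested.

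AT3G44990 was lower in stressed M. moricandioides, with 12.0, 11.9 and 39.3 CPM, against 495, 242, 313, 180 and 524 CPM in stressed M. arvensis (log2 difference -4.06, edgeR adjusted p = 0.000789). AT1G11545 had 0 counts in the 3 M. moricandioides libraries and 135 in those of M. arvensis, so it was at least 31.5-fold lower when 3 counts over the group are taken as the floor. AT5G13870 (-4.69) and AT1G20190 (-3.05) were lower too, the second not without M17s or M19s (edgeR adjusted p up to 0.0755). AT4G37800 had 3 counts in M. moricandioides and 192 in M. arvensis, a ratio of 44.9 in favour of M. arvensis with a 95% counting interval of 15.1 to 219. AT2G06850 (5.73), AT4G28250 (4.62), AT5G02260 (2.44) and AT2G28950 (1.38) were higher in M. moricandioides, without overlap, and AT2G28950 did not pass without M20s (edgeR adjusted p = 0.0782). AT2G36870 was higher by 2.35 (edgeR adjusted p = 0.0481) through library M20s at 7.87 CPM, where the others had 0.611 and 0.512 CPM, and its log2 difference without M20s was -0.0621.

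After rewatering, the question was whether previously stressed leaves had returned to the level of controls and had left the level of stress. Rewatered leaves of M. moricandioides differed from controls of the same time in 0 of 30 members by edgeR, beside 0.0669% of all genes higher and 0.113% lower. The rewatered libraries were all on lane 7 and these controls all on lane 6. In that comparison 5 members had an unadjusted p under 0.05, beside 3831 of 19445 genes, and DESeq2 called 2, beside 4.5% of all genes in either direction. By edgeR 5 members passed without M25s, but the rewatered libraries left were near-identical to one another. In M. arvensis 0 of 38 members were higher and 1 was lower, beside 0.173% and 0.0917% of all genes. There 18 had an unadjusted p under 0.05, beside 3602 of 19623 genes. DESeq2 called 15, with 9 higher and 6 lower, beside 3.13% of all genes in either direction. The 1 lower by edgeR was AT1G26770 (expansin), with 20.6, 20.1, 38.1 and 19.7 CPM in rewatered leaves, against 77.7, 122, 90.5, 187 and 139 CPM in control leaves (log2 difference -2.33, edgeR adjusted p = 0.0291). It did not pass with near-identical libraries summed or without A30s, A38s or A42s. By edgeR 11 members passed without A40s, which leaves only near-identical libraries in that group, and 3 passed without control A6c. Of the 22 XTHs tested, 16 log2 differences were above 0 and 6 below, with a median of 1.07. The XTHs summed to 1324 ± 607 TPM in rewatered leaves (SD, n = 4) and 523 ± 116 TPM in controls (n = 5). Library A40s had 414 TPM. Of the 16 expansins tested, 4 log2 differences were above 0 and 12 below, with a median of -0.61.

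Against the stressed leaves at T2, rewatered leaves of M. arvensis were higher in 20 of 39 members and lower in 5, beside 17.8% and 15.7% of all genes. Expansins gave 8 rises and 2 falls of 17, and XTHs 12 rises and 3 falls of 22, with a member median of 1.45. This comparison uses the same stressed libraries as the test at T2, so the direction of its changes is not separate evidence. The rewatered group held 3 near-identical libraries and A40s, which stood apart. All 3 mesophyll markers, both epidermis markers, 2 of 4 dividing cell markers and all 7 primary wall cellulose genes tested were higher in rewatered leaves. Xyloglucan synthesis genes gave 4 higher and 2 lower of 14, and the secondary wall cellulose genes, also the xylem markers, 0 higher and 1 lower of 3. All 5 water stress response genes were lower. The mesophyll markers summed to 14401 to 20256 TPM in rewatered leaves, against 2271 to 4141 TPM in stressed leaves, and the water stress response genes to 743 to 834 TPM, against 10144 to 13026 TPM. Their part in the result was not tested.

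AT4G03210 had 675, 638, 65.7 and 617 CPM in rewatered leaves of M. arvensis, against 2.30, 5.21, 4.10, 6.43 and 3.13 CPM in stressed leaves (log2 difference 6.91, edgeR adjusted p = 1.94e-05). The low rewatered value of AT4G03210 was that of A40s, and the controls at RW had 192, 106, 120, 63 and 54.3 CPM. AT4G30270 followed the same pattern, with 625, 614, 56.7 and 610 CPM in rewatered leaves and 26.9 ± 8.02 CPM in stressed leaves. AT3G23730 had 130, 125, 3.40 and 123 CPM in rewatered leaves, against 0.0403 to 1.42 CPM in stressed leaves. In these 3 XTHs the A40s value was thus far below the other 3 rewatered libraries and still above all stressed libraries. AT5G65730 had 30.1, 28.7, 32.6 and 28.4 CPM in rewatered leaves, against 0.0407 to 1.50 CPM in stressed leaves, and A40s did not stand apart for it. AT2G06850 rose by 6.69, and AT2G20750 had 181 counts in rewatered and 1 in stressed leaves, a ratio of 209 (95% counting interval 37.1 to 8316).

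Of the 5 members that had risen under stress at T2 in M. arvensis, 4 were lower after rewatering, and AT5G57550 did not pass (log2 difference -0.56). AT4G17030 fell to 3.93, 3.37, 0.418 and 3.56 CPM in rewatered M. arvensis (log2 difference -5.29), with AT4G25810 (-3.14), AT5G57560 (-2.52) and AT3G44990 (-2.13). AT2G03090, which had not passed under stress at T2, was lower too (-1.20). In M. moricandioides, rewatered leaves were higher than stressed ones in 4 of 29 members and lower in 7, beside 7.71% and 10.1% of all genes. The rewatered libraries were on lane 7 and the stressed ones on lane 6, so lane and watering cannot be told apart here. The test at T2 in M. moricandioides used the same stressed libraries, so the direction of these changes is not separate evidence. AT4G17030 fell to 2.64, 1.27, 0.917 and 1.3 CPM in rewatered M. moricandioides, against 63.9, 61.2 and 12.1 CPM in stressed leaves (-4.89, edgeR adjusted p = 0.00232). AT4G25810 (-3.92), AT5G57550 (-3.66), AT5G57560 (-3.61) and AT1G32170 (-3.43) fell with it, of which AT4G25810 and AT5G57560 had passed as rises under stress at T2. The change of AT4G17030 under stress at T2 had not passed in M. moricandioides. AT2G20750 (2.77), AT4G03210 (2.68), AT2G40610 (2.28) and AT1G69530 (1.71) rose, of which AT4G03210 did not pass without M17s, M19s or M20s, nor AT2G20750 and AT2G40610 without M17s, M19s, M26s, M27s or M28s (edgeR adjusted p up to 0.133). With near-identical libraries summed, 0 members passed in M. moricandioides, where both groups then held 2 profiles. Without M25s 17 members passed, but the rewatered libraries left were near-identical to one another.

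**Figure D4:**
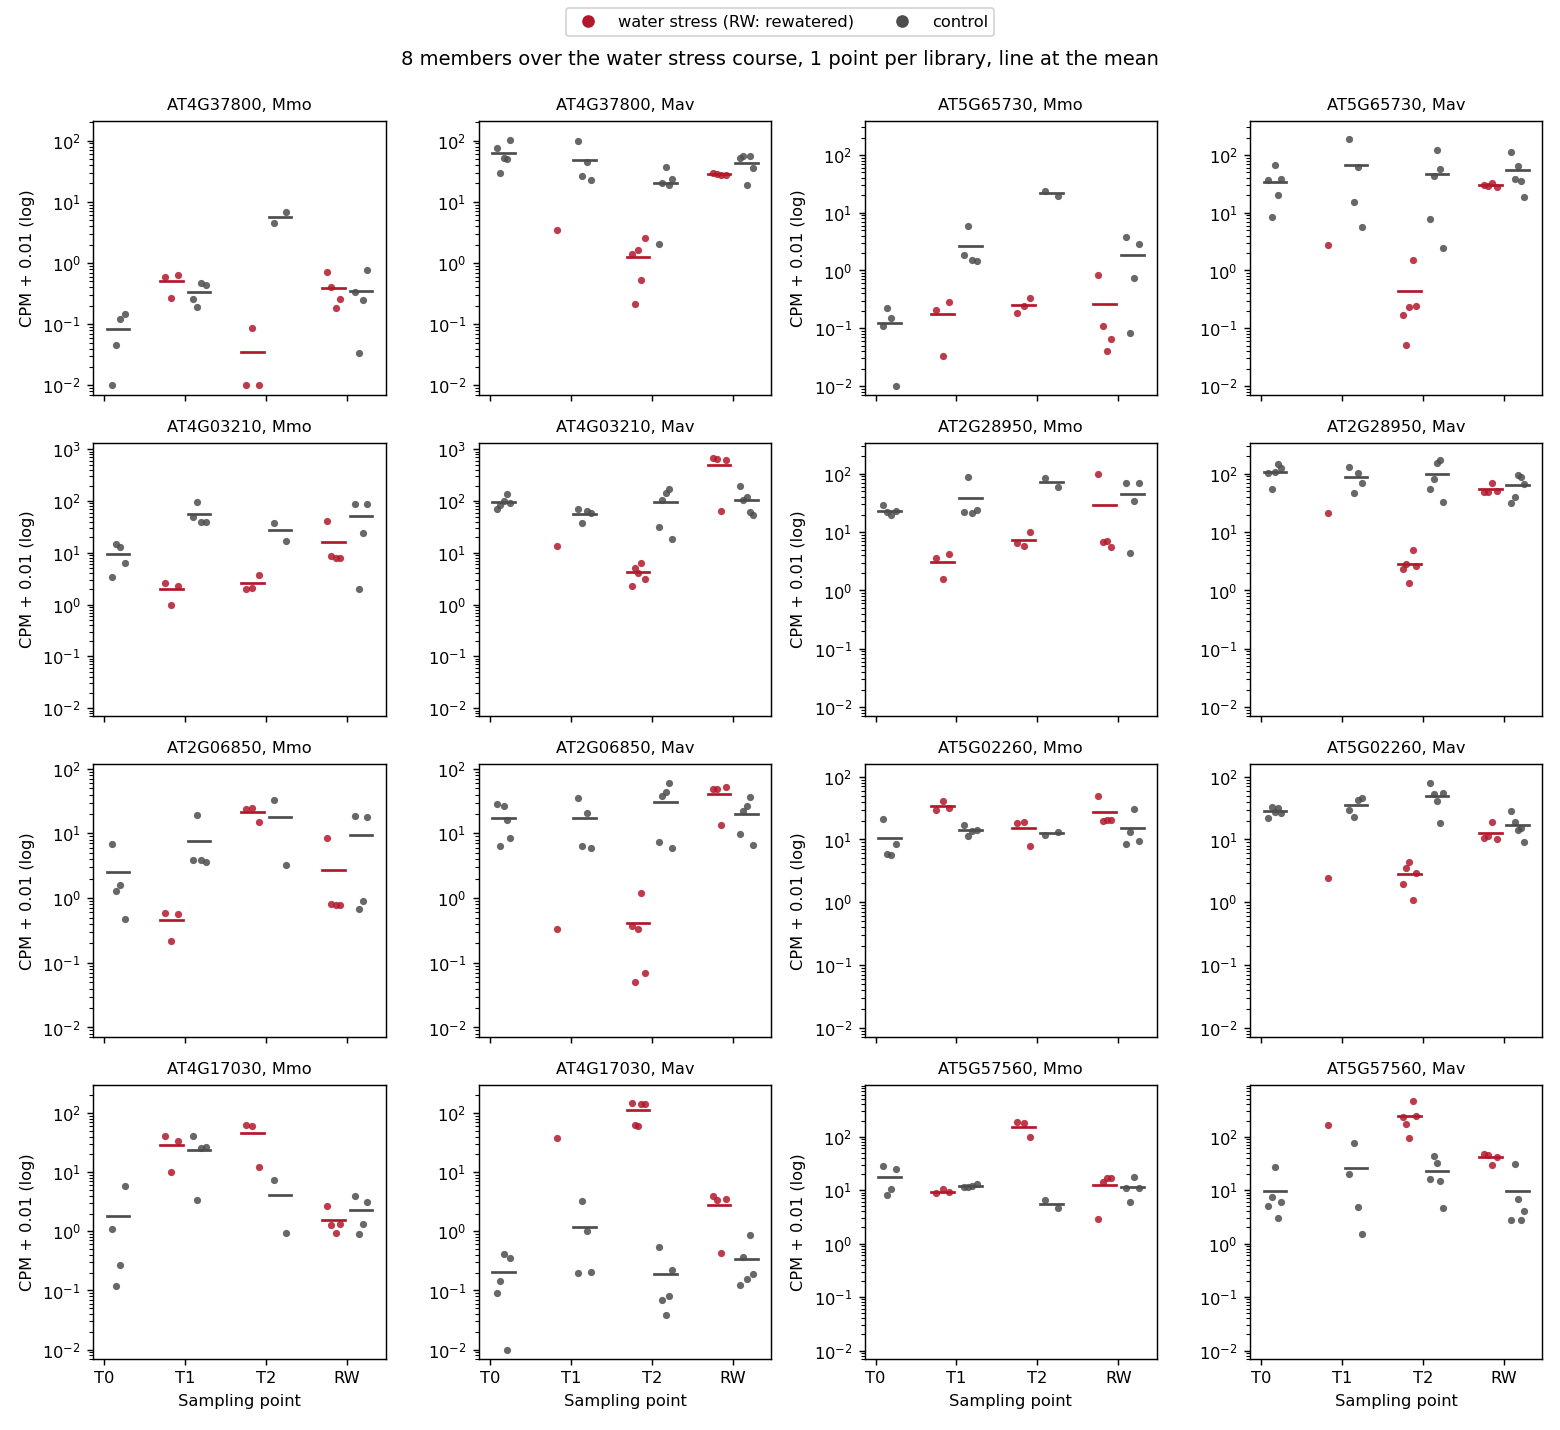
CPM of 8 members at T0, T1, T2 and RW in stressed and control leaves of M. moricandioides (Mmo) and M. arvensis (Mav), on a log axis with 1 point per library, a line at the mean and zero counts drawn at 0.01. AT4G17030 is high in stressed leaves at T2 and lower after rewatering, at 0.917 to 2.64 CPM in M. moricandioides and 0.418 to 3.93 CPM in M. arvensis. In M. moricandioides its well-watered T1 controls overlap its stressed leaves at T2, and its change under stress at T2 did not pass.

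Rewatered leaves of the 2 species were again far apart. Of 38 members tested, 23 were lower and 1 higher in M. moricandioides than in M. arvensis, beside 18.1% and 17.1% of all genes, and the member median was -1.97. The XTHs gave 18 lower and 0 higher of 22 tested with a median of -4.06, and all 22 log2 differences were below 0. The expansins gave 5 lower and 1 higher of 16, with a median of -0.90. With near-identical libraries summed, 4 members passed, as each group then held 2 profiles.

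AT4G30270 had 1.09, 3.92, 3.46 and 3.82 CPM in rewatered M. moricandioides, against 625, 614, 56.7 and 610 CPM in rewatered M. arvensis (log2 difference -7.29, edgeR adjusted p = 0.000201). At T0 the same gene averaged 33.7 ± 21.1 CPM in M. moricandioides and 34.9 ± 20.6 CPM in M. arvensis. AT1G10550 (-7.95), AT1G11545 (-7.29), AT5G65730 (-6.95) and AT3G23730 (-6.48) were the other large differences, all without overlap. AT5G02260 was the 1 member higher in M. moricandioides, with 48.8, 19.6, 20.1 and 20.8 CPM, against 10.6, 11.5, 18.7 and 10.0 CPM in M. arvensis (1.08, edgeR adjusted p = 0.0289), and it did not pass without A30s, A38s or A42s (edgeR adjusted p up to 0.0773) or M25s (log2 difference 0.64). Primary wall cellulose synthesis genes were lower in 7 of 7 and xyloglucan synthesis genes in 7 of 14 with 1 higher, and 2 of 4 dividing cell markers were lower, at 0.756 to 6.25 TPM in M. moricandioides against 5.02 to 7.86 TPM in M. arvensis. Both epidermis markers were lower, at 14.8 to 16.4 TPM in M. moricandioides against 34.1 to 62 TPM in M. arvensis, and 3 of 5 water stress response genes, at 107 to 298 TPM against 743 to 834 TPM, with 0 of 3 mesophyll markers. Their part in the result was not tested.

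**Figure D5:**
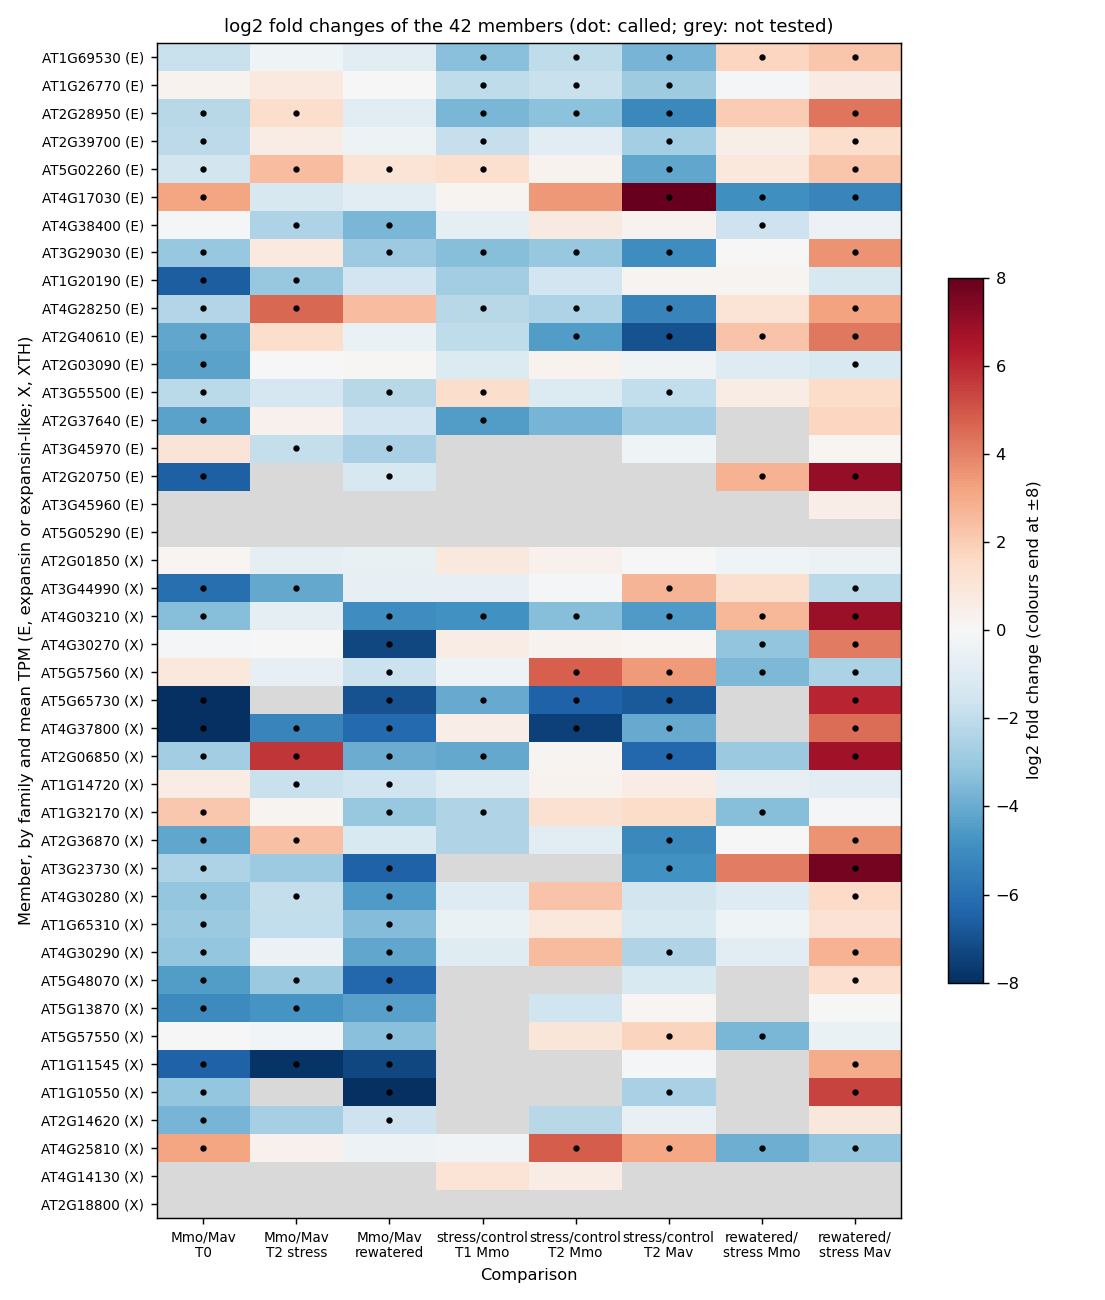
Log2 differences of the 42 members in 8 comparisons, blue where lower and red where higher, with a dot where the test was passed and grey where a member was not tested. The T0 and rewatered comparisons of M. moricandioides with M. arvensis hold 26 and 23 members called lower, and the water stress columns at T2 hold 9 in M. moricandioides and 17 in M. arvensis.

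Over the 16 comparisons, single members differed in how often they passed. AT4G03210 passed in 10 and AT4G28250 in 9, and AT3G29030, AT5G02260 and AT5G65730 in 8 each. AT2G01850, the most abundant member, passed in the 2 comparisons with M. suffruticosa at T0. Neither call was kept without S38, S39 or S43 or with near-identical libraries summed, nor that of M. moricandioides without M1c or that of M. arvensis without A46 (log2 differences 0.76 to 1.14 without 1 library). It was also lower in M. moricandioides than in M. arvensis in the T2 controls (-1.11). AT4G14130 (XTH) was tested in 4 comparisons and passed in 0, and AT3G45970 (expansin) passed in both comparisons of stressed or rewatered leaves between M. moricandioides and M. arvensis, the first not without A28s, M17s or M20s (edgeR adjusted p up to 0.0981) and neither with near-identical libraries summed. Part of the XTH members stand in wall gene lists that the study drew up on these same samples, so their counts are not independent evidence of a direction.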

How the data were processed

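RNA of mature leaves, taken by the study's methods as 4 leaves that had finished expanding from each set of 5 plants, was sequenced and processed by the authors, who assigned reads to the minimal coding sequences of Arabidopsis TAIR10 with BLAT in protein space and kept best-scoring matches only. Close paralogs can therefore share reads, and strand was not given in the sources used here. The authors deposited for each library an expected count per gene, which held whole numbers only, and a TPM value. A median of 2656 features per library had a count of 0 but a TPM above 0, so counts and TPM were not interchangeable for low genes.

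From the deposited counts, log2 differences were tested with edgeR 4.0.16 in R 4.3.3 (quasi-likelihood test, filterByExpr, TMM scaling) on the libraries of the groups compared, with Benjamini-Hochberg adjustment over all genes tested. A gene was called where its adjusted p was under 0.05 and its log2 difference lay beyond 1 in either direction. CPM values use 1 TMM scaling over all 78 libraries, and errors are SD unless given as SE. Ratios resting on 3 or fewer counts carry exact binomial 95% intervals, and a count of 0 was replaced by a floor of 3 counts over the group. Depth was 22346621 to 41675513 counts per library. The script was tested on simulated counts with known changes, where DESeq2 recovered more of the changed genes than edgeR but also made more false calls.

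Groups followed the labels. The alternatives were RLE scaling, no filter, DESeq2 1.42.0, limma 3.58.1 on log2(TPM + 1), an adjusted p under 0.01, 1 fit over all libraries, near-identical libraries summed, leaving out sequencing lane 7 and leaving out each library. Control comparisons at T1, T2 and RW were added after the data had been seen. The members and all gene lists were chosen with earlier results of these data known. By rule, the text names up to 5 called members per direction and comparison with the largest log2 difference, the 6 most abundant members, members that never passed the filter, members called in 4 or more comparisons, and at most 2 genes of other lists per comparison. Other members were named after their values had been seen.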

Additional observations from a re-analysis of the deposited data

Results flagged for a closer look

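Within groups of 4 to 10 libraries, 101 of 512 checks of a member in a group (19.7%) found the highest or the lowest library farther from the rest than Dixon's 95% critical value, where chance alone gives about 5%. The checks are not independent, since 4 libraries gave most of them. Library M25s of rewatered M. moricandioides gave 19 of 34, M6c of the M. moricandioides T1 controls 18 of 33, A40s of rewatered M. arvensis 15 of 40 and S42 of the M. suffruticosa T0 controls 13 of 36. In each of these groups 2 or 3 of the other libraries were near-identical to one another.

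The family sums of these libraries stood apart as well. For the expansins they were 377 TPM in A40s (others 235 to 242), 362 TPM in M25s (others 106 to 115), 344 TPM in M6c (others 145 to 178) and 745 TPM in S42 (others 410 to 429). For the XTHs they were 414 TPM in A40s (others 1612 to 1636), 265 TPM in M25s (others 191 to 193), 331 TPM in M6c (others 137 to 167) and 496 TPM in S42 (others 391 to 400).

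Among the 6 most abundant members, the same libraries differed in direction from gene to gene. AT2G01850 was at 107 CPM in A40s, 62.8 CPM in M25s, 177 CPM in M6c and 114 CPM in S42, and also stood apart at 161 CPM in A22c of the M. arvensis T2 controls and at 398 CPM in the stressed library A37s. AT1G69530 was at 164 CPM in A40s, 101 CPM in M25s, 108 CPM in M6c and 489 CPM in S42, the highest of its group each time. AT3G44990 was at 167 CPM in M25s (others 9.76 to 11.2), 95.5 CPM in M6c and 202 CPM in S42. AT4G03210 was at 65.7 CPM in A40s (others 617 to 675), 41.4 CPM in M25s (others 7.84 to 8.54) and 85.5 CPM in S42. AT1G26770 was at 38.1 CPM in A40s, 43.7 CPM in M25s and 101 CPM in M6c, and at 630 CPM in S26c of the M. suffruticosa T1 controls (others 113 to 184). AT2G28950 was at 69.5 CPM in A40s, 98.6 CPM in M25s (others 5.54 to 7.13) and 86.7 CPM in M6c.

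The response to water stress at T2 differed between the species by the interaction test for AT5G02260 (4.42 on the log2 scale, M. moricandioides minus M. arvensis), AT2G06850 (6.49) and AT4G17030 (-5.76).

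The single stressed library of M. arvensis at T1 entered no test. It had 37.1 CPM of AT4G17030, against 0.186 to 3.22 CPM in the 4 controls, and 166 CPM of AT5G57560, against 1.49 to 76.6 CPM in the controls.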

How the results depend on the processing

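The number of members called at T2 in M. arvensis (22) and after rewatering against stress in M. arvensis (25) stayed within 1.5 times under every alternative run. RLE scaling moved no count of members by over 1.5 times. The other counts that did move were as follows, and where no reason is given the cause was not tested. For M. moricandioides over M. arvensis at T0 (29), the controls of T1, T2 and RW gave 14, 12 and 13. Summing near-identical libraries, which leaves fewer samples, gave 9 for M. moricandioides over M. arvensis at T2 (15), 4 after rewatering (24), 3 for M. arvensis over M. suffruticosa (14), 6 for stress at T1 in M. moricandioides (13), 2 at T2 (11), 0 for rewatered M. arvensis over its controls (1) and 0 for rewatered over stressed M. moricandioides (11). Summing with 1 fit over all groups gave 13 after rewatering (24), 15 for M. moricandioides over M. suffruticosa (26), 2 for M. arvensis over M. suffruticosa, 2 at T1 and 1 at T2 in M. moricandioides, 8 at T1 in M. suffruticosa (0), 1 for the interaction (3), 0 for rewatered M. arvensis, 1 for rewatered over stressed M. moricandioides and 5 for its T1 over T0 controls (10). An adjusted p under 0.01 gave 9 at T2 between species, 8 for M. arvensis over M. suffruticosa, 8 at T1 and 1 at T2 in M. moricandioides, 1 for the interaction, 0 for rewatered M. arvensis, 6 for rewatered over stressed M. moricandioides and 1 for M. arvensis T2 over T0 controls (2). Taking 1 fit over all libraries gave 9 for M. arvensis over M. suffruticosa, 8 at T1 and 5 at T2 in M. moricandioides, 12 at T1 in M. suffruticosa, 1 for rewatered M. moricandioides over controls (0), 2 for rewatered M. arvensis and 4 for its T2 over T0 controls. DESeq2 gave 10 at T1 in M. suffruticosa, 9 for the interaction, 2 and 15 for rewatered M. moricandioides and M. arvensis over controls, and 7 for the M. arvensis controls. Limma on log2(TPM + 1) gave 9 for M. arvensis over M. suffruticosa, 3 at T1 in M. suffruticosa, 3 for rewatered M. arvensis and 1 for its controls. It moved the median of all genes by up to 0.301, at T1 in M. moricandioides. No filter gave 6 at T1 in M. suffruticosa and 1 for the M. arvensis controls. Without lane 7 the interaction had 8 and rewatered M. arvensis 0.

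Leaving out each library in turn gave 26 to 30, 11 to 16 and 23 to 34 members for M. moricandioides over M. arvensis at T0, at T2 and after rewatering, 22 to 27 and 7 to 16 for M. moricandioides and M. arvensis over M. suffruticosa, and 10 to 15, 0 to 5, 0 to 17 and 19 to 26 for stress at T1 in M. moricandioides and M. suffruticosa and at T2 in M. moricandioides and M. arvensis. It gave 1 to 6 for the interaction (1 without M16c, 5 without A24c or A37s, 6 without A22c or A35s), 0 to 5 and 0 to 11 for rewatered M. moricandioides and M. arvensis over controls, 8 to 17 and 23 to 26 for rewatered over stressed leaves, 9 to 16 for the M. moricandioides controls and 1 to 2 for those of M. arvensis, with 1 without A1, A4, A46, A48, A9c, A15c or A24c. AT2G36870 at T2 between species ranged over -0.0621 (without M20s, a change of sign) to 2.85 (without M19s), where all libraries gave 2.35. Where 1 library was left in a group, it is assumed to vary like the others. Without M8s, M20s, M25s, A40s or S42, the libraries left in that group were near-identical to one another. The spread of the group was then only the one between these libraries. No paired analysis was possible because the groups compared share fewer than 2 replicate labels. Leaving out lane 7 was not run where a group would keep fewer than 2 libraries, and near-identical libraries could not be summed at T1 in M. suffruticosa or in the M. arvensis controls, which hold none. Depth limits members with few counts, and the ratios with wide counting intervals above are of this kind.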

Other observations

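Libraries of M. suffruticosa at T2 were not compared, and their values are given alone. AT4G17030 had 174, 137, 1.23 and 0.663 CPM in the 4 libraries labelled stressed at T2, of which the low pair, S5s and S8s, were near-identical to controls of that time. In the 3 T1 libraries labelled stressed it had 1.47, 160 and 129 CPM. AT5G13870 was at or below 0.308 CPM in every library labelled M. suffruticosa.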
